A study of Mus musculus with 3 samples.

Results

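The chemokine ligand genes were examined for Foxp3 occupancy in mouse macrophages. They were taken from the RefSeq gene table as the protein-coding genes on chromosomes 1 to 19 and X with a symbol of the form Ccl, Cxcl, Xcl or Cx3cl plus a number. There were 39 such genes of 21627 protein-coding genes. Of these, 38 had a position on an assembled chromosome, as did 21519 of all protein-coding genes, and these positions were compared with the peaks. Ccl21c was the member without such a position and was not analysed here. The symbol rule used no measured value.

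Chemokines are small secreted proteins that direct the migration of leukocytes by binding receptors that couple to G proteins. The CXC, CC, C and CX3C families are named for the spacing of their first cysteines. Several are made by macrophages within hours of tissue damage, and many of their genes lie in tandem clusters that arose by duplication. Foxp3, a forkhead protein, is the factor that defines regulatory T cells.

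The cells were bone marrow-derived macrophages, BMDM, grown in medium conditioned with M-CSF and fixed with formaldehyde before CUT&RUN, an assay in which an antibody guides a nuclease to its target and the released DNA is sequenced. The group studied was 2 libraries made with the Foxp3 antibody FJK-16s, replicates 1 and 2. The series also has 1 isotype IgG library, which was not analysed here, so each value below stands without a background library. The series title names brain-derived damage molecules as a stimulus, but no library carries a stimulation label of its own, and no strain, genotype or age is given, so no conditions could be compared. Replicate 1 held 33294105 fragments and 556535 peaks, and replicate 2 held 34898401 fragments and 95135 peaks. A peak says nothing of expression, so the labelled cell type could not be checked by its markers. Peaks of both replicates stood at ends of 4 of 6 macrophage, 2 of 4 T cell, 1 of 3 B cell and 2 of 3 neutrophil marker genes, counts too small to set against the 62.5% of all protein-coding genes. Nothing in the labels says that the replicates came from separate cultures, so their spread may be technical.

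A site is a peak that overlapped the 1 kb on either side of an annotated gene end. Strength is given as the fold enrichment that the authors' peak caller deposited, the summit pileup (the number of fragments over the summit) relative to a background estimated in the same library. In a pool of cells, a low pileup from few cells with an occupied site cannot be told apart from weak occupancy in many. Listed peaks had at least 10 fragments (replicate 1) or 13 (replicate 2) at the summit, and more were needed where the local background was higher. A missing peak thus means only that no site passed the peak caller's threshold there.

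Fewer chemokine ligand genes than genes in general carried a Foxp3 site in both replicates. Replicate 1 had a site at 28 of 38 members (73.7%, 95% exact binomial interval 56.9 to 86.6%), against 86.5% of all protein-coding genes. Replicate 2 had one at 13 of 38 (34.2%, 19.6 to 51.4%), against 63.6%. All 13 also had a site in replicate 1, and 62.5% of all genes had a site in both. In each of the 13 a peak of replicate 1 overlapped a peak of replicate 2 by at least 1 bp, as was so for 58.2% of all genes. At an overlap of at least 50% of both lengths, 9 members (23.7%) and 43.9% of all genes were left. Where the table gives a transcription start, 10 of 28 members (35.7%) had a site of both replicates within 1 kb of it, against 61.1% of genes with a start. These are counts of genes, which are not replicates, and no test was made on them.

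**Figure D1:**
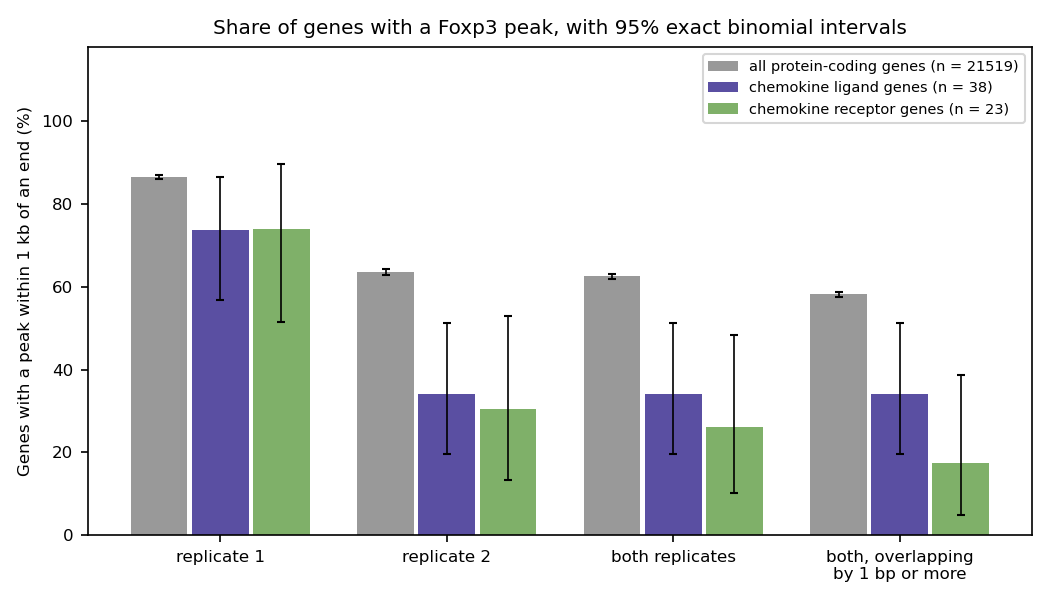
Share of genes (vertical axis, %) with a Foxp3 peak within 1 kb of a gene end in replicate 1, in replicate 2, in both and in both with overlapping peaks. Bars stand for all protein-coding genes, the 38 chemokine ligand genes and the 23 chemokine receptor genes, and error bars are 95% exact binomial intervals. The ligand genes stand at 73.7% in replicate 1 and at 34.2% in replicate 2, against 86.5% and 63.6% of all genes.

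The members fell into 3 sets. The 13 with a site in both were Cxcl1, Cxcl2, Cxcl3, Cxcl5, Cxcl12, Cxcl14, Cxcl16, Cx3cl1, Ccl25, Ccl26, Ccl27a, Ccl27b and Ccl21b. A further 15 had a site in replicate 1 only, namely Ccl1, Ccl2, Ccl3, Ccl4, Ccl5, Ccl6, Ccl8, Ccl11, Ccl19, Ccl21d, Ccl22, Ccl24, Ccl28, Cxcl9 and Cxcl15. The remaining 10, Ccl7, Ccl9, Ccl12, Ccl17, Ccl20, Ccl21a, Cxcl10, Cxcl13, Cxcl17 and Xcl1, had none within 1 kb of an end in either. By family, 7 of 12 CXC genes (58.3%) had a site in both, near the 62.5% of all genes, and 5 of 24 CC genes (20.8%) did. Of the CC genes, 0 of 11 on chromosome 11 and 5 of 13 elsewhere (38.5%) had one. In replicate 1, the strongest site of the 28 members with one had a median fold enrichment of 7.41 (3.17 to 21.9), against 10.1 over all genes with a site. In replicate 2 the median of the 13 was 5.13 (3.75 to 8.21), against 5.36. Strengths of members with a replicate 2 site thus lay near the general level, while the replicate 1 median of members lay under it.

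**Figure D2:**
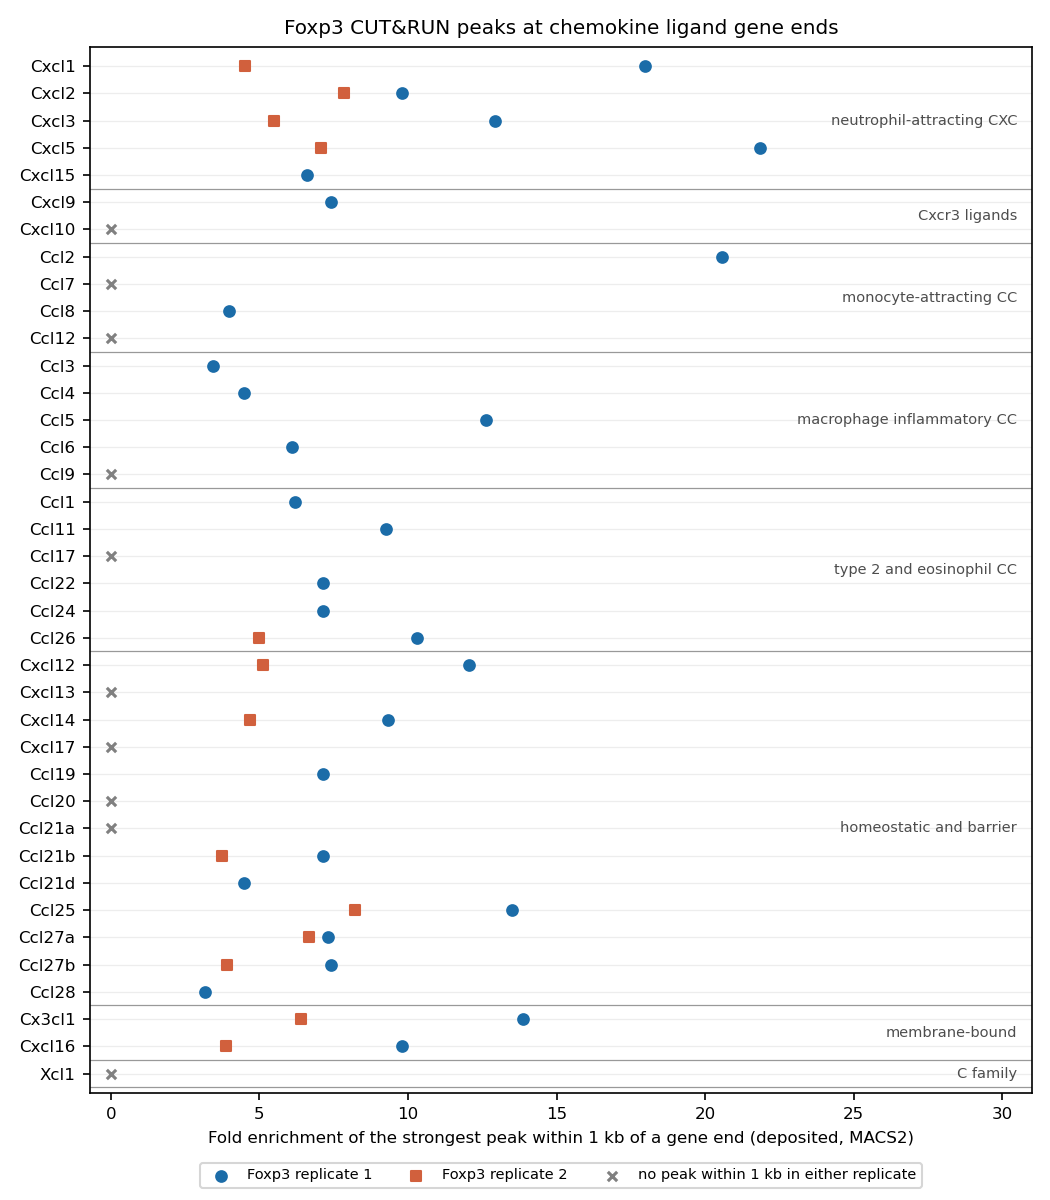
Fold enrichment (horizontal axis, deposited by the authors' peak caller) of the strongest peak within 1 kb of a gene end for each of 38 chemokine ligand genes, grouped by role. Circles are replicate 1, squares are replicate 2, and crosses mark the 10 genes with no peak there in either. Squares stand at 4 of 5 neutrophil-attracting CXC genes and at no gene of the monocyte-attracting or macrophage inflammatory CC groups. Over all protein-coding genes 63.6% had a replicate 2 site.

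The neutrophil-attracting CXC genes carried sites of both replicates in 4 of 5 cases (80.0%, 95% exact binomial interval 28.4 to 99.5%), a range that spans the 62.5% of all genes. The products of Cxcl1, Cxcl2, Cxcl3 and Cxcl5 bind Cxcr2, the receptor through which neutrophils leave the blood. All 5 genes lie together on chromosome 5. Cxcl1 (gene ID 14825, chromosome 5, positions 90891245 to 90893121, mm10) had fold enrichments of 18.0 in replicate 1 and 4.52 in replicate 2 (11.2 ± 9.52 as mean and SD, n = 2), from summit pileups of 106 and 22 fragments. Cxcl2 (gene ID 20310, positions 90903899 to 90905938) had 9.79 and 7.85 (8.82 ± 1.37 as mean and SD, n = 2), from 36 and 39 fragments. Cxcl1 thus differed 3.98 times between the replicates and Cxcl2 1.25 times.

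Cxcl3 (gene ID 330122, positions 90786101 to 90788093) had fold enrichments of 12.9 in replicate 1 and 5.50 in replicate 2 (9.22 ± 5.27 as mean and SD, n = 2), with pileups of 54 and 27. Cxcl5 (gene ID 20311, positions 90759298 to 90761625), which in the mouse encodes the chemokine LIX, had 21.9 and 7.07 (14.5 ± 10.5 as mean and SD, n = 2), with pileups of 90 and 35. Among all genes with a site, 96.5% had an equal or lower fold than Cxcl5 in replicate 1 and 82.9% in replicate 2, the highest mean percentile among the 13. The fifth gene, Cxcl15 or lungkine, made chiefly in lung epithelium, had a single replicate 1 peak of 6.61, at 842 bp beyond its far end.

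At Cxcl1, Cxcl2, Cxcl3 and Cxcl5 the shared peaks lay at the lower-coordinate end of the gene. For the 3 with a listed start, that end is the transcription start. The strongest Cxcl1 summits lay 133 and 112 bp inside the gene in replicates 1 and 2. Those of Cxcl3 lay 61 and 187 bp inside. The Cxcl5 summits lay 203 and 155 bp from the lower end. The peaks of the replicates shared 281 bp at Cxcl1, 280 bp at Cxcl3 and 229 bp at Cxcl5. Cxcl2 differed, since its peaks met over 9 bp only, with summits 347 bp inside the gene in replicate 1 and 63 bp inside in replicate 2. A second replicate 1 peak, of 11.3, stood 268 bp before the Cxcl1 start and also overlapped the replicate 2 peak there.

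The bases just before these starts are shown because peaks of both replicates lie on or beside them and because the sequences resemble one another. They are the 250 bases before the start, 5′ to 3′, from RefSeq on the GRCm38.p6 assembly, at chr5:90890995-90891244 for Cxcl1, chr5:90903649-90903898 for Cxcl2 and chr5:90785851-90786100 for Cxcl3, all on the plus strand. Capitals mark matches, on either strand, to any of 5 words searched: the forkhead word TGTTTAC, the kappaB word (GGGA, any 4 bases, CC), the AP-1 word TGANTCA, the ETS core GAGGAA and the TATA word TATAAA.
Cxcl1: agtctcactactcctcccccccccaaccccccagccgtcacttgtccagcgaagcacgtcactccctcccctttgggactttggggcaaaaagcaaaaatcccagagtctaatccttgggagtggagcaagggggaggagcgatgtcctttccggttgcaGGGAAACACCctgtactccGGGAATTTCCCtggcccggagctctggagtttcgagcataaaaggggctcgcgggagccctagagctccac
Cxcl2: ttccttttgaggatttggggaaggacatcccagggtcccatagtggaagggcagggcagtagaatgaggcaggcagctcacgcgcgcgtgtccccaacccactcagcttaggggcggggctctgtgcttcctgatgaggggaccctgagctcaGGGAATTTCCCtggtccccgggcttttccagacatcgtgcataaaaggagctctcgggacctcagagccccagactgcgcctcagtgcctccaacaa
Cxcl3: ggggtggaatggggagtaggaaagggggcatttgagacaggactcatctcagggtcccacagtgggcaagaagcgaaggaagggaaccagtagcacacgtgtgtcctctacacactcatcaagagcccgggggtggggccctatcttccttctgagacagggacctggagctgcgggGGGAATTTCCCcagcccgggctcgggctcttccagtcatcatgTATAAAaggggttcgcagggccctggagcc
All 3 hold the run GGGAATTTCC, beginning 71, 97 and 73 bases before the start of Cxcl1, Cxcl2 and Cxcl3. The next base makes it read as a kappaB word on both strands. NF-kappaB, the factor that binds such words, is a main inducer of these genes in macrophages. That exact run, chosen after the matches were seen, occurred in 21 of 21044 promoters of protein-coding genes (0.0998%), on either strand. Of the 21 genes that hold it, 15 (71.4%) had a site in both replicates, against 62.0% of all genes with a listed promoter. The 15 include Cxcl1, Cxcl2 and Cxcl3, from which the run was taken and which were shown for their peaks. That choice raised the share, so no conclusion is drawn from it. The general kappaB word was present in 19.8% of promoters. A Cxcl1 peak of each replicate overlapped the 250 bases, as did a replicate 2 peak at Cxcl2 and a replicate 1 peak at Cxcl3. The run itself lay under a replicate 2 peak at Cxcl1 and at Cxcl2, and under no peak at Cxcl3. No replicate 1 peak covered it at any of the 3 genes.

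The 2 membrane-bound chemokines both had sites in both replicates, a count too small to set against the 62.5% of all genes. These ligands carry the chemokine domain on a mucin stalk and can tether cells as well as attract them. Cx3cl1 or fractalkine (gene ID 20312, chromosome 8, positions 94772180 to 94782427) had fold enrichments of 13.9 in replicate 1 and 6.39 in replicate 2 (10.1 ± 5.30 as mean and SD, n = 2), with summits 45 bp inside and 65 bp before its start. The replicate 1 peak lay wholly within the replicate 2 peak, over 262 bp. A second overlapping pair stood near its far end, with folds of 4.39 and 4.49. No other member had overlapping pairs at both of its ends.

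The 250 bases before the Cx3cl1 start, chr8:94771930-94772179 on the plus strand, are given because peaks of both replicates cover part of them. Capitals mark the same words.
Cx3cl1: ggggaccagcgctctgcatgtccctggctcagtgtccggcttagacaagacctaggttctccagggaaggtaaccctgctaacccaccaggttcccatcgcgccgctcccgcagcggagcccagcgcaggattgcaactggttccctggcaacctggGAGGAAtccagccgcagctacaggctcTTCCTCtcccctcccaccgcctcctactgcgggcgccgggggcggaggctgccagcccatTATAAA
They hold the ETS core at 2 places and a TATA word that ends at the last base, and no kappaB or forkhead match. Cxcl16 (gene ID 66102, chromosome 11, positions 70454389 to 70459984), which is also the scavenger receptor SR-PSOX, had 9.81 in replicate 1 and 3.89 in replicate 2 (6.85 ± 4.18, SD, n = 2) at its higher-coordinate end. These peaks overlapped by 106 bp and lay within 1 kb of an end of Zmynd15 as well, so they could not be assigned to Cxcl16 alone.

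Among homeostatic and barrier chemokines, which place lymphocytes in lymphoid organs, gut and skin, 6 of 13 had a site in both. Their share of 46.2% had an exact binomial interval of 19.2 to 74.9%, which spans the 62.5% of all genes. Cxcl12 (gene ID 20315, chromosome 6, positions 117168535 to 117181368), the stromal ligand of Cxcr4, had fold enrichments of 12.1 in replicate 1 and 5.13 in replicate 2 (8.60 ± 4.90, SD, n = 2), from 102 and 43 fragments. Its peaks were broad, 990 and 955 bp long, and shared 882 bp at the start. Ccl25, which guides T cells to thymus and gut (gene ID 20300, chromosome 8, positions 4325205 to 4360020), had 13.5 and 8.21 (10.9 ± 3.75, SD, n = 2) over a shared 739 bp, from 98 and 49 fragments. Those peaks lay within 1 kb of an end of Elavl1 too. They stood at the lower-coordinate one of the 2 listed Ccl25 starts. The other start lies 24383 bp inside the gene, and no peak of either replicate overlapped the promoter bases before it. Cxcl14 (gene ID 57266, chromosome 13, positions 56288643 to 56296811), an epithelial chemokine, had 9.34 and 4.68 (7.01 ± 3.29, SD, n = 2) at its start. The broad shared peaks at Cxcl12, Ccl25 and Cxcl14 can be set beside median peak lengths of 167 and 236 bp in the 2 lists.

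The other 3 genes of this group with sites in both lie on chromosome 4, where near-identical copies of the Ccl21 and Ccl27 genes could share reads, so their values are uncertain. Ccl27a, a skin chemokine, had fold enrichments of 7.32 in replicate 1 and 6.68 in replicate 2 (SD 0.457, n = 2). Ccl27b had 7.42 and 3.93 (5.67 ± 2.47), and Ccl21b, whose annotated span of 83706 bp is long for a chemokine gene, had 7.14 and 3.75 (5.44 ± 2.40). Of their neighbours, Ccl19, the ligand of Ccr7 in lymph nodes, had 7.14 in replicate 1 only, Ccl21d had 4.50 in replicate 1 only, and Ccl21a had none. Without the 6 members on chromosome 4, a count made after the data were seen, 10 of 32 members had a site in both, against 62.5% of all genes. Ccl28 of mucosal epithelium had 3.17 in replicate 1 only, while Cxcl13, Cxcl17 and Ccl20 had none at their ends in either. Over the whole gene with 1 kb on either side, Ccl28 had 10 replicate 1 and 2 replicate 2 peaks, with an overlap between the replicates. Cxcl17 had 1 of each there, and these did not overlap.

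The inflammatory CC genes on chromosome 11 had no replicate 2 peak within 1 kb of any end. This held for all 11 of them, of which 8 had a replicate 1 site. Over all genes, 63.6% had a replicate 2 site and 86.5% a replicate 1 site. Ccl2 or MCP-1 (gene ID 20296, chromosome 11, positions 82035577 to 82037452), the main attractant of monocytes, had a replicate 1 peak of 20.6 with 89 fragments, at 34 bp from its lower-coordinate end. The nearest replicate 2 peak to Ccl2 lay 1608 bp beyond the gene, with 16 fragments and a fold of 3.34. Of the 941 protein-coding genes whose replicate 1 site was as strong as that of Ccl2 or stronger, 94.5% had a replicate 2 site. Ccl2 was in the small remainder.

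Ccl5 or RANTES (gene ID 20304, positions 83525778 to 83530518), which attracts T cells and monocytes, had a replicate 1 peak of 12.6 with 58 fragments, 94 bp inside its higher-coordinate end. Of the 6091 genes with a replicate 1 site at least as strong, 92.5% had one in replicate 2. Ccl11 or eotaxin had 9.26 in replicate 1. Ccl3 and Ccl4, the macrophage inflammatory proteins MIP-1α and MIP-1β, had weak replicate 1 peaks of 3.44 and 4.50, from 12 and 16 fragments. The annotated span of Ccl4 overlaps Ccl3, and the Ccl3 peak is counted at both. The others with a replicate 1 site were Ccl1 (6.21), Ccl6 (6.08) and Ccl8 (3.97), and Ccl7, Ccl9 and Ccl12 had none at their ends. Ccl9 had a replicate 1 peak of 16.7 inside the gene, with 62 fragments.

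Among the type 2 chemokines, which attract T cells and eosinophils in allergic responses, 1 of 6 had a site in both. The share of 16.7% had an exact binomial interval of 0.421 to 64.1%, which spans the 62.5% of all genes. The member with a site in both was Ccl26 (gene ID 541307, chromosome 5, positions 135560448 to 135563569). It had fold enrichments of 10.3 in replicate 1 and 4.97 in replicate 2 (7.64 ± 3.77, SD, n = 2). Its peaks lay 579 and 595 bp inside the lower-coordinate end and shared 220 bp. Ccl22 and Ccl17, the ligands of Ccr4 that are typical of alternatively activated macrophages and dendritic cells, flank Cx3cl1 on chromosome 8. Ccl22 had replicate 1 peaks of 7.14, 6.35 and 2.91, the lowest of them 32 bp inside its start, and its nearest replicate 2 peak was 3639 bp away. Ccl17 had no peak at its ends in either replicate, and its nearest replicate 2 peak was 8265 bp away. Its listed start lies 1073 bp inside the annotated span, and a weak replicate 1 peak (2.67, from 12 fragments) had its summit 216 bp after that start. Ccl24 had 7.14 in replicate 1 only.

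The interferon-induced ligands of Cxcr3, which recruit T cells, had no replicate 2 site. Cxcl9 had 7.41 in replicate 1, near the end opposite its start, and 8.20 inside the gene. Cxcl10 had no peak of either replicate within 1 kb, and its nearest peaks lay 1299 bp away in replicate 1 and 8608 bp in replicate 2. Xcl1, the ligand of Xcr1 on cross-presenting dendritic cells, had no peak within 5 kb in either.

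Promoters of members without any site are shown for contrast, Cxcl10 at chr5:92348890-92349139 on the minus strand and Ccl12, a mouse ligand of Ccr2, at chr11:82101595-82101844 on the plus strand. Capitals mark the same words as above.
Cxcl10: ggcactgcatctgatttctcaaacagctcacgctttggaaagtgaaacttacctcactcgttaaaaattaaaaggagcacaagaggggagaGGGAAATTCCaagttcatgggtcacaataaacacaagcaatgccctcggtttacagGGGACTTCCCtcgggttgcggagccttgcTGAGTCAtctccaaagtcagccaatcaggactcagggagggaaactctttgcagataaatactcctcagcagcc
Ccl12: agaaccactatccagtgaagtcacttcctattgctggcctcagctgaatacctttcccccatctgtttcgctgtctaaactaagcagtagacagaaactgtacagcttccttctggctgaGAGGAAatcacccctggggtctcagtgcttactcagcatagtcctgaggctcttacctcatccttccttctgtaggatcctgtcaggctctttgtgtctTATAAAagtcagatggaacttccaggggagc
The Cxcl10 promoter holds the kappaB word at 2 places and an AP-1 word, and no peak of either replicate covers it. Over the 28 members with a listed start, 12 had a kappaB word and 5 of those 12 had a site in both, while 5 of the 16 without it did. No member's window held the forkhead word, which 2.64% of all promoters hold. The TATA word was in 10 members, 4 of them with a site in both, and the ETS core in 10, 3 of them with a site in both. These counts are per gene, so the word and the site can belong to different starts. The TATA words of Ccl25 and Ccl27b lay before starts inside the gene, and no peak of either replicate overlapped the bases searched there. Those of Cxcl3 and Cx3cl1 lay before the starts at which the shared peaks stood. By promoter, the kappaB word was in 38.2% of the 34 promoters listed for members, against 19.8% of all promoters. The TATA word was in 29.4%, against 11.7%, and the ETS core in 35.3%, against 22.5%. AP-1 words were in 11.8%, against 6.17%. The member promoters are not independent. Ccl27a and Ccl27b hold the same kappaB, AP-1 and ETS matches, and Ccl21a and Ccl21d the same ETS match. Overlapping Ccl27a windows count the same kappaB and ETS matches again. Median GC content was 56.2% over the 16 promoters of members with a site in both and 47.8% over the 18 of the others, against 60.0% and 47.6% in the same split of all genes. Of the 16, 3 belong to Ccl27a and 4 to Ccl27b.

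Summits at members with a listed start and a site in both lay mostly inside the gene. In replicate 1 this was so for the strongest peak of 9 of 10 such members, at a median of 97 bp after the start (range -261 to 853 bp). In replicate 2 it was so for 7 of 10, at a median of 150 bp (range -436 to 731 bp). Exon and UTR borders were not used here.

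**Figure D3:**
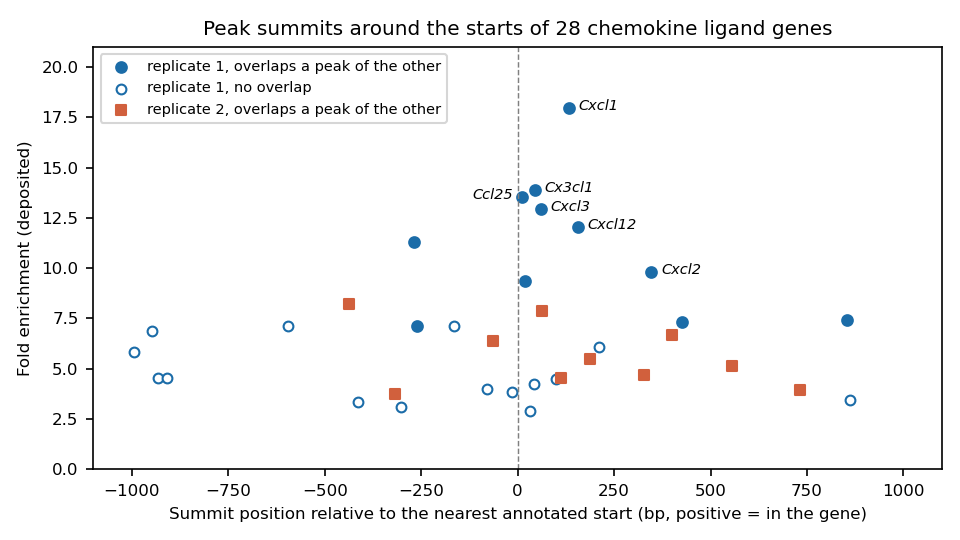
Peak summits by distance from the nearest annotated start (horizontal axis, bp, positive inside the gene) and deposited fold enrichment (vertical axis), for the 28 chemokine ligand genes with a listed start. Filled symbols overlap a peak of the other replicate and open circles do not. The filled replicate 1 points above 12 (Cxcl1, Cx3cl1, Ccl25, Cxcl3 and Cxcl12) lie between 12 and 156 bp inside the gene.

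Whether a member had a replicate 2 site went with how strong its replicate 1 site was, as in other genes. The 13 members with both had a replicate 1 median of 10.3 and the 15 with replicate 1 only had 6.61, against 11.6 and 6.33 in the same sets of all genes. None of 5 members with a replicate 1 fold under 5 had a replicate 2 site, against 27.3% of other genes at that strength. From 5 to 7.5 the count was 3 of 10 (others 50.3%), from 7.5 to 10 it was 3 of 4 (others 74.0%), from 10 to 15 it was 5 of 6 (others 88.1%) and at 15 or more it was 2 of 3 (others 93.6%). The exceptions at 10 or more were Ccl5 and Ccl2. Of members with no replicate 1 site, 0 of 10 had one in replicate 2, against 8.10% of other genes. The numbers per step are small, and 15 of the 28 members with a replicate 1 site lay under 7.5.

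**Figure D4:**
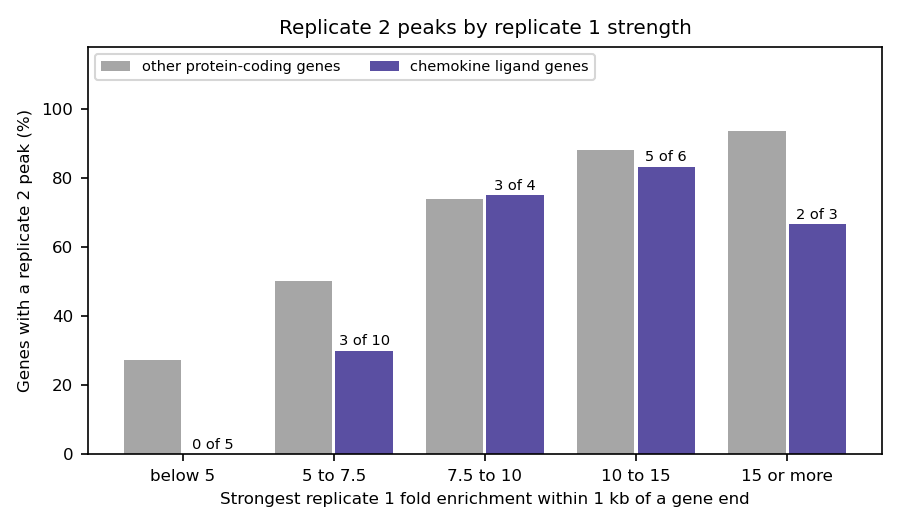
Share of genes with a replicate 2 peak within 1 kb of an end (vertical axis, %) by the strength of the replicate 1 site (horizontal axis, fold enrichment). Grey bars are other protein-coding genes, purple bars chemokine ligand genes, with their counts above. The purple bars rise from 0 of 5 members under 5 to 5 of 6 at 10 to 15, and stand at 2 of 3 at 15 or more.

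The clusters were then examined between as well as at the genes. A cluster is a run of members with gaps of at most 200 kb. The CXC cluster on chromosome 5 (Cxcl5 to Cxcl2, positions 90759298 to 90905938) held 33 peaks of replicate 1 and 8 of replicate 2, or 22.2 and 5.38 per 100 kb with 1 kb on either side included. The CC cluster from Ccl2 to Ccl1 (chromosome 11, positions 82035577 to 82179812) held 29 and 3, or 19.8 and 2.05 per 100 kb. The CC cluster from Ccl5 to Ccl4 (positions 83525778 to 83664683) held 38 and 3, or 27.0 and 2.13 per 100 kb. The mean over chromosomes 1 to 19 and X was 21.6 in replicate 1 and 3.69 in replicate 2. Replicate 1 thus lay between 19.8 and 27.0 around its mean, while replicate 2 was above its mean in the CXC cluster and below it in both CC clusters of chromosome 11. Other CC clusters rested on few replicate 2 peaks. The span from Ccl26 to Ccl24 on chromosome 5 had 6.81 per 100 kb, from 1 peak. That from Ccl22 to Ccl17 on chromosome 8 had 5.85, from 4 peaks, most of them at or inside Cx3cl1, which is not a CC gene. On chromosome 4, Ccl27a to Ccl21d had 5.83, from 8 peaks, and Ccl27b to Ccl21a had 3.19, from 4. In the 500 kb on either side, replicate 2 held 10.2, 8.60, 4.70 and 3.10 per 100 kb, in the same order.

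The surroundings of the CXC cluster and of both CC clusters of chromosome 11 did not have the order of these clusters in replicate 2. Replicate 2 held 2.50 peaks per 100 kb in the 500 kb on either side of the CXC cluster, and 6.30 and 4.10 beside the CC clusters from Ccl2 and from Ccl5. Replicate 1 held 15.1, 37.3 and 27.4 in the same surroundings, against 22.2, 19.8 and 27.0 within the clusters. The CXC cluster was thus denser than its surroundings and the Ccl2 cluster sparser in both replicates. Within 1 Mb, 7 of 16 other protein-coding genes had a site in both beside the CXC cluster, 10 of 17 beside the Ccl2 cluster and 25 of 37 beside the Ccl5 cluster. These counts can be set against 4 of 5, 0 of 6 and 0 of 5 members in the 3 clusters.

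**Figure D5:**
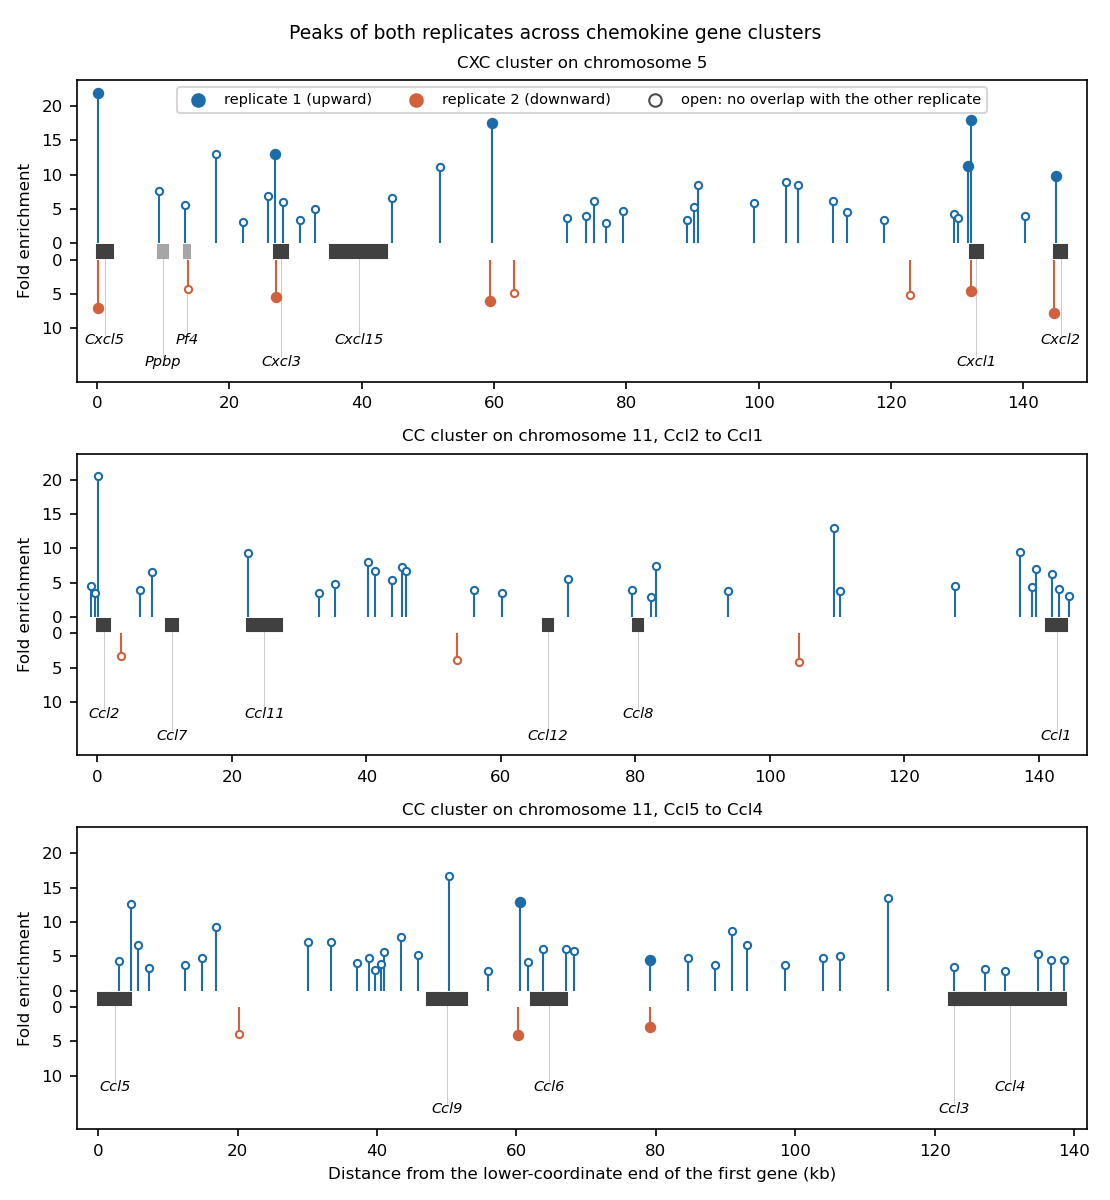
Peaks of replicate 1 (upward) and replicate 2 (downward) across 3 chemokine clusters, by distance in kb from the lower-coordinate end of the first gene (horizontal axis) and deposited fold enrichment (vertical axis, both directions from 0). Dark boxes are member genes, light boxes are Ppbp and Pf4, and filled points overlap a peak of the other replicate. In the CXC cluster 5 of 8 replicate 2 peaks are filled, in the Ccl2 cluster 0 of 3 and in the Ccl5 cluster 2 of 3.

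The replicates met at different places in the clusters of chromosomes 5 and 11. Of the 11 replicate 2 peaks in the 3 clusters of chromosome 5 (CXC, Cxcl9 to Cxcl10 and Ccl26 to Ccl24), 6 overlapped a replicate 1 peak by at least 50% of both lengths and 7 by at least 1 bp. Of the 6 in the CC clusters of chromosome 11, the counts were 0 and 2. Over all replicate 2 peaks on chromosomes 1 to 19 and X the shares were 32.8% and 53.7%. With so few peaks, counting error alone is wide.

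Between the genes, 23 replicate 1 and 3 replicate 2 peaks lay in the chromosome 5 clusters, and 44 and 6 in those of chromosome 11. A single place between genes was shared at 50% of both lengths, in the gap from Cxcl15 to Cxcl1. It was a broad peak of 832 bp in replicate 1 (chromosome 5, positions 90818443 to 90819274) and of 769 bp in replicate 2 (90818499 to 90819267), and the replicate 2 peak lay wholly within the other. Replicate 1 gave it a fold of 17.5 from 92 fragments and replicate 2 a fold of 6.09 from 30. Peaks at least as long made up 0.811% of the replicate 1 list and 4.41% of the replicate 2 list. The summits lay 15853 and 15568 bp above the end of Cxcl15 and 72325 and 72610 bp below the start of Cxcl1.

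On chromosome 11, both pairs of touching peaks between genes were in the Ccl5 cluster. One, just below Ccl6, met over 32 bp, with a fold of 13.0 in replicate 1 and 4.12 in replicate 2 and summits 1574 and 1868 bp from the gene. The other met over 50 bp, with 4.50 and 2.95. In the Ccl2 cluster the 3 replicate 2 peaks, with folds of 3.34, 3.93 and 4.12, touched no replicate 1 peak, and a replicate 1 peak of 13.0 between Ccl8 and Ccl1 touched none of replicate 2. In the Cxcl9 to Cxcl10 cluster, the shared peak (9.52 and 3.34) lay at an end of Art3, whose annotated span runs through the cluster.

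The chemokines Pf4 and Ppbp, platelet products whose symbols fall outside the rule, lie between Cxcl5 and Cxcl3. Pf4 had 5.55 in replicate 1 and 4.32 in replicate 2, and these peaks did not overlap. Ppbp had 7.67 in replicate 1 only. Of 23 chemokine receptor genes, 17 had a site in replicate 1, 7 in replicate 2 and 6 in both (26.1%, 95% exact binomial interval 10.2 to 48.4%, against 62.5% of all genes). Peaks of the replicates overlapped at 4 receptor genes (17.4%), against 34.2% of ligand genes, a difference that was not tested. The 3 highest by mean percentile were Xcr1 (17.5 in replicate 1 and 6.28 in replicate 2), Ackr3, a scavenging receptor for Cxcl12 (20.8 and 3.40, at opposite ends), and Ccr10, the receptor for Ccl27 and Ccl28 (10.4 and 4.03). The Xcr1 peaks lay within 1 kb of an end of Fyco1 too. The 10.4 peak at Ccr10 lay within 1 kb of an end of Cntnap1 and was not the one that overlapped replicate 2. Ccr1 and Cx3cr1, receptors of macrophages and monocytes, had no site in either. Cxcr2, the receptor for Cxcl1, Cxcl2, Cxcl3 and Cxcl5, had 9.26 in replicate 1 only.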

How the data were processed

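Foxp3 CUT&RUN peak lists of 2 libraries were used. The submitters' processing notes name mm10 and CASAVA 1.4, and the aligner was not given in the sources used here. MACS 2.1.1.20160309 called peaks per library, per the file headers, without a control, with every duplicate kept and at a q-value of 0.01. Pileup was deposited as a signal, unscaled for depth. The fold enrichment that the authors deposited is a ratio to background within the library, taken genome-wide or over 10000 bp. The deposited −log10 p-value and −log10 q-value were used to rank peaks only. Duplicates and the missing control can let sites that any antibody gives be listed.

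Peaks were joined to RefSeq gene positions (GRCm38.p6) with Python 3.11.15 and pandas 2.3.3. Starts and promoter bases came from RefSeq for 28 of 38 members; other members have ends without a strand. No test was run, since there is 1 group of 2 replicates. Exact binomial intervals (scipy 1.17.1) cover counting error only. Counting was tested on simulated peaks. The members, lists, roles and the rule for named genes (every member accounted for, members with a site in both named with values, and the 3 highest receptors by mean percentile) were chosen with earlier results of these data known. Alternatives changed the window, the overlap, the peaks kept and the replicate.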

Additional observations from a re-analysis of the deposited data

How the results depend on the processing

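Windows of 5000 bp raised the members with a site in both replicates, and with a site in replicate 2, to 22 of 38 (57.9%, against 79.3% of all genes). Of the 9 added, Ccl2, Ccl4, Ccl5, Ccl22 and Cxcl13 had no peaks of the replicates that overlapped. Over whole gene bodies plus 1 kb, 15 of 38 members (39.5%, against 77.8% of all genes) had a site in both, with Cxcl17 and Ccl28 gained. That window grows with gene length, which was not matched between members and other genes. With peaks of at least 5-fold in each list, 7 members kept a site in both, in replicate 2, and an overlap (18.4%, against 36.8% of all genes with a site in both), and Cxcl1 was lost. By annotated starts, 18 of 28 members had a replicate 1 site. With 1 replicate left out, the count was 13 to 28 members. Shared cluster peaks on chromosomes 5 and 11 fell from 6 of 17 to 3 of 5 with 5-fold peaks, because fewer peaks were left. Peaks at members, counted per gene, rose from 68 to 189 within 5000 bp and 140 over gene bodies, because the windows were longer. The members' share stayed under that of all genes in the 6 settings in which both were counted. Of 31 alternative values, 21 were within 1.5 times the main count. Weak sites below 10 and 13 fragments were not detectable, and more fragments were needed where the local background was higher. No paired analysis was possible because there is 1 group with peak lists and no comparison between groups.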

Other observations

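Cxcl11, the remaining ligand of Cxcr3, is listed as a transcribed pseudogene in the gene table and so is not a member. It had 1 replicate 1 peak at its ends (fold 5.82, 21 fragments) and no replicate 2 peak.

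Over all protein-coding genes with a listed start, 73.0% of the 3844 with a kappaB word in the 250 bases before it had a Foxp3 site in both replicates, against 58.9% of the 13429 without. The TATA word went the other way (37.9% of 2378 genes against 65.9% of 14895), as did the forkhead word (48.4% of 531 against 62.4% of 16742) and the AP-1 word (46.7% of 1252 against 63.2% of 16021). With the ETS core the shares were 62.1% and 62.0%. Promoters of genes with a site in both had a median GC content of 60.0%, against 47.6% without, and the part of GC content in these shares was not tested.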
